A study of Mus musculus with 6 samples.

Results

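The snoRNA host genes Gas5, Snhg1, Snhg3, Snhg4, Snhg5, Snhg6, Snhg8, Snhg12, Snhg15 and Zfas1 were examined in mouse Ba/F3 cells that carried RPL10 WT or RPL10 R98S. These 10 genes were chosen by name, as classical noncoding transcripts that carry small nucleolar RNAs (snoRNAs) in their introns. Of the 10, 7 were listed under their own symbol among the 41255 rows of the expression table and 2 under an older symbol (Snhg15 as Gm11974 and Zfas1 as 1500012F01Rik), while Snhg8 was found under neither. The expression of Snhg8 was therefore not analysed, and only its annotation, start sequence and hosted snoRNA are described.

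The cells are an interleukin-3-dependent mouse lymphoid line to which a human RPL10 cDNA had been added by retroviral transfer, and mouse Rpl10 had been knocked down with a short hairpin RNA in every clone. The WT group comprised clones 28, 29 and 36 (n = 3), and the R98S group, in which serine replaces arginine at residue 98 of this ribosomal protein, comprised clones 11, 13 and 35 (n = 3). Each clone was a culture grown from 1 cell and gave 1 library, so the spread within a group includes differences between clones, and each genotype is known here from 3 such clones. All cultures had been exposed to cycloheximide, which stalls translating ribosomes, at 100 µg/ml for 5 min before polyadenylated RNA was sequenced from 21786776 to 24204991 counted reads per library. Values below are normalized read counts, that is, reads scaled by the size factor of their library, and 1 read was worth 0.925 to 1.07 of them.

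A snoRNA host gene is transcribed and spliced like an mRNA, and the snoRNAs are trimmed out of its introns and join proteins into particles that guide the modification or cleavage of ribosomal RNA. Box C/D snoRNAs guide methylation of the ribose, and box H/ACA snoRNAs guide the conversion of uridine to pseudouridine. The spliced exons that remain often hold only short open reading frames, are bound by ribosomes and are degraded by nonsense-mediated decay (NMD), so that blocking translation is known to raise several of these transcripts, Gas5 among them, and their promoters frequently start with a pyrimidine tract like those of ribosomal protein mRNAs.

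In the GENCODE M21 annotation on GRCm38, 9 of the hosts had an entry and Snhg4 had none under that symbol. These 9 held 31 snoRNAs on their own strand, from 9 in Gas5 and 8 in Snhg1 to 1 each in Snhg6, Snhg8 and Snhg15. Gas5 lies at chr1:161034422-161038539 (+), Snhg6 at chr1:9941959-9944118 (-), Snhg15 at chr11:6525591-6528760 (-) and Zfas1 at chr2:167062934-167065862 (+). Snhg5 lies at chr9:88521050-88522929 (-), Snhg1 at chr19:8723475-8726443 (+), Snhg12 at chr4:132308623-132311024 (+), Snhg3 at chr4:132348014-132353686 (-) and Snhg8 at chr3:123507552-123508404 (-).

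**Figure D1:**
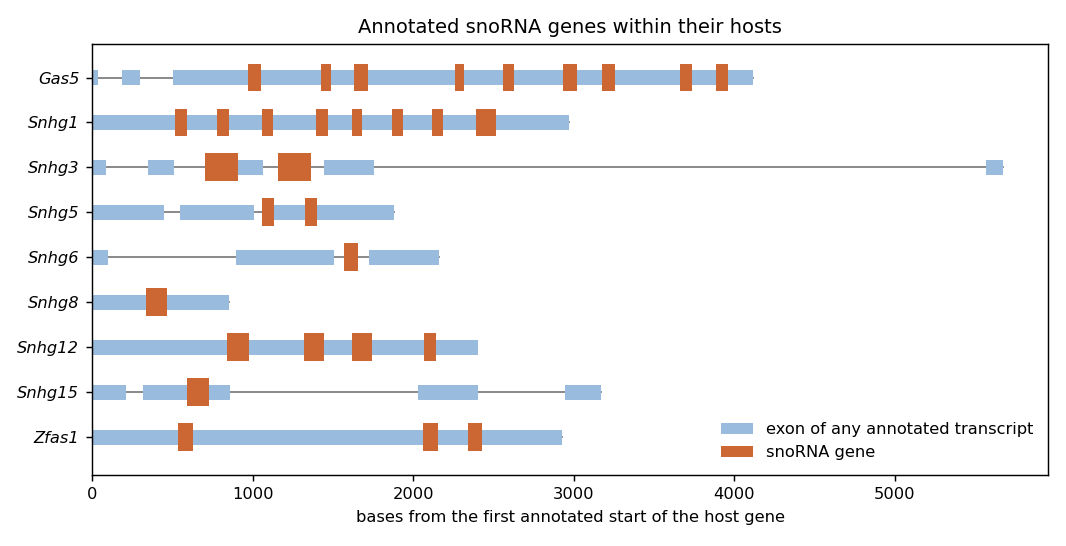
Maps of the 9 annotated host genes to scale, in bases from the first annotated start of each gene (x axis), with exons of any annotated transcript in blue and snoRNA genes in orange. Gas5 holds 9 snoRNAs and Snhg6, Snhg8 and Snhg15 hold 1 each, and several snoRNAs lie within the blue blocks because some annotated transcripts keep that intron.

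Only 3 of the hosted snoRNAs had any read in these libraries, and their sequences are shown for that reason. They are Snord87 in Snhg6 (chr1:9942463-9942549, minus strand), Snora24 in Snhg8 (chr3:123507937-123508066, minus strand) and Snora16a in Snhg12 (chr4:132309464-132309600, plus strand), taken from the GENCODE transcripts on GRCm38, 5′ to 3′. Snord47 from Gas5 (chr1:161038082-161038158, plus strand) and Snord12 from Zfas1 (chr2:167065276-167065365, plus strand), both without a read, are added as box C/D examples from the host with the most snoRNAs and from the host with the highest values. Capitals mark box C (NTGATGA, searched in the first 25 bases) and box D (CTGA, in the last 15) or, in the box H/ACA members, the ACA that stands 3 bases from the end.
Snord87: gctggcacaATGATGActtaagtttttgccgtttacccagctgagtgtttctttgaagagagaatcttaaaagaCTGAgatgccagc
Snord47: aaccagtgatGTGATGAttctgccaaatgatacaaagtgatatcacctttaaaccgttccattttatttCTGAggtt
Snord12: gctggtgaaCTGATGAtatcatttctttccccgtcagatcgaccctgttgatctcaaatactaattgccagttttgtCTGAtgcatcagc
Snora24: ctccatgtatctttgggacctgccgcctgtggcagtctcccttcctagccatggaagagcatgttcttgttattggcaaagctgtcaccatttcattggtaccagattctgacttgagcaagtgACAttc
Snora16a: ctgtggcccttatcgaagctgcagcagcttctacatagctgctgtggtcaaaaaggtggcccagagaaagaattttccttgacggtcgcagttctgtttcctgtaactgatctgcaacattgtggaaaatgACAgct
Of the 31 snoRNAs, 20 held both box C and box D in these windows and 6 others ended in the ACA arrangement, and their lengths ran from 60 to 205 bases.

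The exonic side of the hosts was described from 80 spliced GENCODE transcripts of 9 host genes. Their median length was 605.5 bases and the longest open reading frame (ATG to stop) in any of them had 90 codons. In 69 of the 80 (86.3%) the last exon junction lay more than 50 bases after the stop of the first reading frame, an arrangement known to mark mRNAs for NMD. It was present in 24 of 25 Gas5 transcripts, 5 of 5 of Zfas1, 4 of 5 of Snhg6 and 3 of 4 of Snhg15, but in 2 of 5 of Snhg3. The first reading frame of 1 such transcript of each tested host is shown, with start and stop codon in capitals, since its shortness is what these RNAs share on the exonic side.
Gas5-203: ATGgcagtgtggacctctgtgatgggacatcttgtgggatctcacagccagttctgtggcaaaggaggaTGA
Zfas1-201: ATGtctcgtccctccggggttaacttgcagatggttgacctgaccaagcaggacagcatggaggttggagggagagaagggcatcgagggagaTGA
Snhg15-204: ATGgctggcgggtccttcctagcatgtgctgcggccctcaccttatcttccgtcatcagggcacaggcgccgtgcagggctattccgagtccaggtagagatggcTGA
Snhg6-203: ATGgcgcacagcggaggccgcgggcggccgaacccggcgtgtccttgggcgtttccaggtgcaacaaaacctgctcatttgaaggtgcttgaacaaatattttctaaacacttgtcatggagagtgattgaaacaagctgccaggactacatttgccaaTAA
They ran to 23 codons in Gas5-203, 31 in Zfas1-201, 35 in Snhg15-204 and 53 in Snhg6-203, and the last junction followed the stop by 246, 351, 220 and 73 bases.

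At their start sites the 8 hosts searched were mixed. Snhg4 and Snhg6 were left out of this search, so the share below does not cover them. A run of at least 6 pyrimidines (C or T, beginning with C) between 10 bases before and 20 bases after the start was found at 3 of 9 RefSeq starts of 8 hosts, read on the gene's strand, against 22.02% of all 32851 promoters searched the same way. The 3 starts belonged to Gas5 (its downstream start, chr1:161035146-161035205, plus strand), Snhg8 (chr3:123508297-123508356, minus strand) and Snhg12 (chr4:132308658-132308717, plus strand). They are printed from 20 bases before to 40 bases after the RefSeq start (GRCm38.p6) with the run in capitals, to be read beside the regulators of pyrimidine-tract mRNAs described below.
Gas5 start: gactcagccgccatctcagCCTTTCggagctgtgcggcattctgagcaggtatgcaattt
Snhg8 start: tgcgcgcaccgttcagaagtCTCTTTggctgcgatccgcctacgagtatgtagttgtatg
Snhg12 start: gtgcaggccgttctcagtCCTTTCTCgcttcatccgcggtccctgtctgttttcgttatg

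The identity of the cells was checked by marker genes. All 3 interleukin-3 receptor genes had means of at least 100, with a summed level of 87943 to 103977 in WT and 130712 to 154304 in R98S clones. Of 10 B lineage markers only Ptprc, Cd79a and Cd79b had means of at least 100, and 4 (Pax5, Vpreb1, Igll1 and Rag1) were at or under 3 reads in every library, with sums of 10160 to 15419 in WT and 5264 to 7300 in R98S clones. The 8 myeloid and mast cell markers summed to 25042 to 29741 in WT and 13833 to 17414 in R98S clones. Nearly all of this was Gata2 (13577 to 29516 over all clones). Cpa3 ran from 10.2 to 389 and Ms4a2 from 32.7 to 146, while Kit, Fcer1a and Elane were at or under 3 reads throughout. The 6 T cell markers summed to 52.2 to 106 in WT and 152 to 179 in R98S clones. Of these, Lck (29.7 to 112 over all clones) and Cd3d (8.60 to 87.3) had means of at least 10, while Cd3e and Cd4 were at or under 3 reads. Erythroid sums were 199 to 679 and 365 to 578, and stromal sums 3.07 to 18.3 and 8.33 to 15.9, with Pdgfrb at or under 3 reads. The part of these shifts in the host results was not tested. The targeted gene Rpl10 read 2853, 3156 and 1900 in WT and 3028, 1883 and 2617 in R98S clones (adjusted p = 0.871, limma), with any reads of the human transgene that align to it included.

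Noncoding transcripts as a class had few reads in this table, which bears on every host value. Of 4183 long noncoding rows 2.46% reached a mean of 10, against 50.9% of 21355 protein-coding rows, and long noncoding rows held 0.0693% to 0.0722% of reads in WT and 0.0692% to 0.0850% in R98S clones. Malat1 and Neat1, nuclear RNAs that are abundant in most mammalian cells, had at most 6 and 3 reads in any library. The host values are therefore given as relative measurements between libraries, and the step that left so few noncoding reads was not tested.

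Zfas1, which overlaps the promoter of Znfx1 and hosts 3 box C/D snoRNAs, was the host with by far the most reads. Its normalized counts were 2650, 2408 and 1608 for clones 28, 29 and 36 (WT), and 2230, 2594 and 2157 for clones 11, 13 and 35 (R98S). The groups overlapped, with the lowest value in WT clone 36 and the highest in WT clone 28. Means were 2222 ± 545 and 2327 ± 234 (SD, n = 3 each), a log2 fold change of 0.094 ± 0.19 (SE) with a limma adjusted p of 0.765, and the 95% confidence interval of the fold ran from 0.792 to 1.44. Without WT clone 36 the difference turned to -0.12 (adjusted p = 0.551, limma), so its direction rested on that library.

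Snhg6, host of Snord87, was the next most abundant per length. It read 65.5, 51.6 and 51.0 in WT and 112.6, 76.5 and 77.7 in R98S clones. All R98S clones lay above all WT clones, and clone 11 was the highest. Means were 56.1 ± 8.22 and 88.9 ± 20.5 (SD, n = 3 each), a log2 fold change of 0.64 ± 0.25 (SE), with an unadjusted p of 0.0340 and an adjusted p of 0.124 in limma, short of the threshold of 0.1. The 95% interval of the fold was 1.04 to 2.34, on totals of 163 and 279 reads. Without R98S clone 11 the log2 fold change was 0.46 (adjusted p = 0.313, limma), and without WT clone 28 it was 0.76 (adjusted p = 0.182, limma). With the median shift of its 30 nearest tested genes subtracted it was 0.41 (adjusted p = 0.242, limma).

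Snhg15, a stress-responsive host of Snora9, gave 31.7, 19.3 and 54.0 in WT and 59.1, 71.4 and 56.4 in R98S clones. The groups did not overlap, although WT clone 36 came within a few counts of R98S clone 35. Means were 35.0 ± 17.6 and 62.3 ± 8.01 (SD, n = 3 each), a log2 fold change of 0.92 ± 0.38 (SE), with an unadjusted p of 0.0400 and an adjusted p of 0.137 in limma. Without WT clone 36 the log2 fold change was 1.29 and passed (adjusted p = 0.0466, limma), and without WT clone 29 it was 0.57 (adjusted p = 0.356, limma).

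Gas5, the growth-arrest transcript with 9 snoRNAs, gave 15.4, 11.8 and 15.01 in WT and 32.8, 17.4 and 27.8 in R98S clones. Again no R98S clone fell within the WT range, and clone 13 was the nearest to it. Means were 14.1 ± 1.95 and 26.0 ± 7.89 (SD, n = 3 each), from 41 and 82 reads in all, with a log2 fold change of 0.80 ± 0.36 (SE), an unadjusted p of 0.0578 and an adjusted p of 0.173 in limma. Without R98S clone 13 it was 1.06 and passed (adjusted p = 0.0791, limma), and without R98S clone 11 it was 0.62 (adjusted p = 0.376, limma). The interval of the fold on all clones was 0.977 to 3.12.

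**Figure D2:**
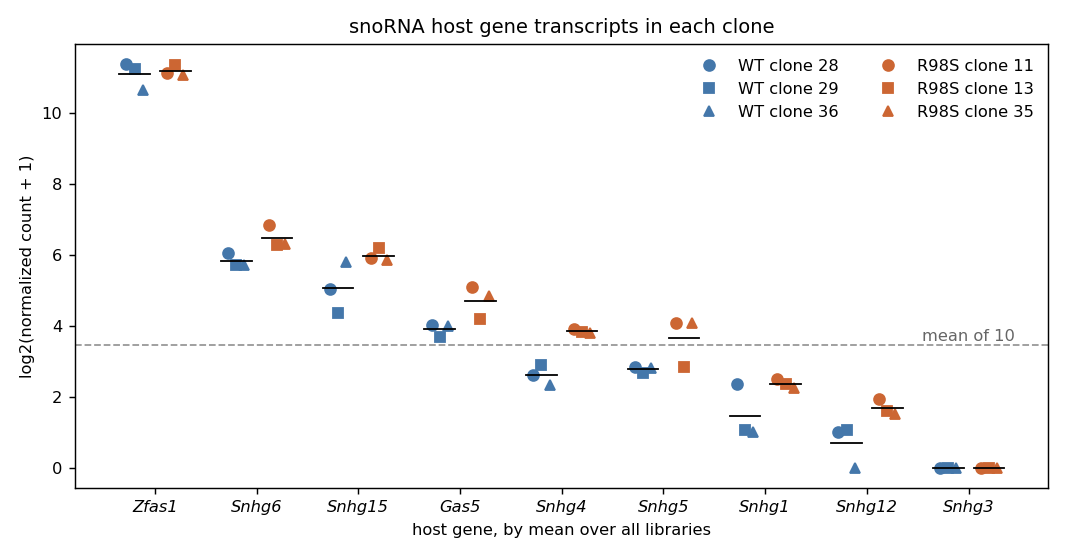
Expression of the 9 host genes with a row, as log2(normalized count + 1) on the y axis, for each WT clone (blue) and R98S clone (orange), with black bars for group means and a dashed line at the mean of 10 needed for testing. Zfas1 overlaps between groups, while Snhg6, Snhg15, Gas5, Snhg4 and Snhg12 do not, and Snhg3 is at 0 throughout. Snhg12 is at or under 3 reads in every library.

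Thus 0 of the 4 tested hosts passed the limma threshold. edgeR and DESeq2 also called 0 hosts, beside 2746 and 3105 of all tested genes. An unadjusted limma p under 0.05 was found for 2 hosts (Snhg6 and Snhg15), beside 3663 of all 11550 tested genes. Of all 11550 tested genes 23.9% were called and 10.7% were called higher in R98S, and among the 2046 with a mean from 10 to under 100, where Gas5, Snhg6 and Snhg15 lie, 18.9% were called. The groups did not overlap in 3 of the 4 hosts, each time with R98S higher, which was true of 18.1% of all tested genes. The median log2 fold change was 0.72 over the 4 hosts and -0.011 over all tested genes. With 3 clones a group an exact permutation test of a single gene cannot give a p below 0.1. In these bulk cultures, a change in the share of cells that use a gene and a change in RNA per cell cannot be told apart.

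**Figure D3:**
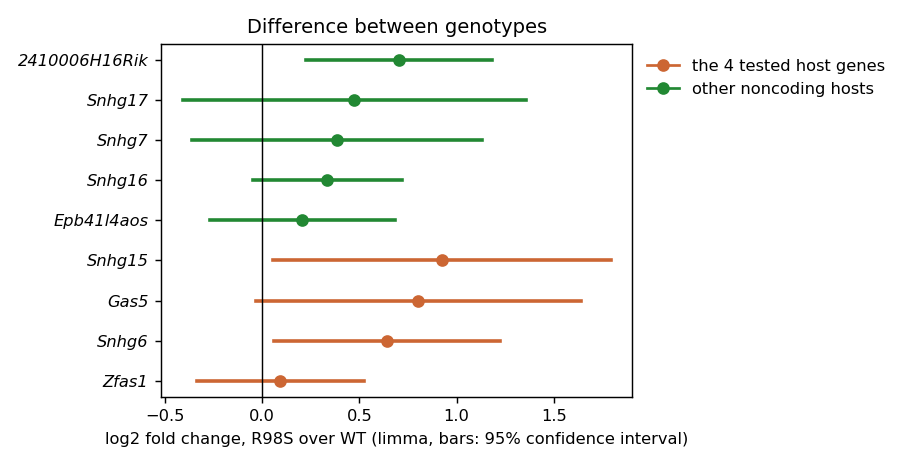
Log2 fold change of R98S over WT (x axis) with 95% confidence intervals from limma for the 4 tested hosts (orange) and 5 other noncoding snoRNA hosts (green). All 9 points lie above 0, beside 5667 of all 11550 tested genes. The interval excludes 0 for Snhg6, Snhg15 and 2410006H16Rik, beside 3663 of all tested genes with an unadjusted limma p under 0.05.

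The other 5 hosts with a row stayed under the mean of 10 and had no place in the main test. Snhg4 and Snhg5 came nearest, with means of 9.31 and 9.22 over all libraries, and Gas5, at 20.02, was the lowest host inside. Because this filter uses the mean of both groups, the 4 tested hosts are not a sample of all 10.

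Snhg4 gave 5.12, 6.45 and 4.003 in WT and 14.1, 13.3 and 13.0 in R98S clones. The groups did not overlap, and the R98S clones lay close together. There were 15 reads in WT and 42 in R98S clones, a ratio of 2.64 per read sequenced with an exact 95% interval of 1.43 to 5.13, which covers counting error only and not the spread between clones. Fitted without the filter, the log2 fold change was 1.24 with a limma adjusted p of 0.157, and 1.35 with an adjusted p of 0.104 in edgeR.

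Snhg5, host of Snord50a and Snord50b, gave 6.14, 5.37 and 6.005 in WT and 15.9, 6.12 and 15.7 in R98S clones. R98S clone 13 lay inside the WT range and the other two far above it. The totals were 17 and 40 reads, a ratio of 2.22 (exact 95% interval 1.23 to 4.17, again for counting error only and not the spread between clones). The adjusted p without the filter was 0.412 in limma and 0.259 in edgeR.

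Snhg1, with 8 snoRNAs, had 6 reads in WT and 13 in R98S clones, a ratio of 2.04 (exact 95% interval 0.724 to 6.55, for counting error only), and the groups overlapped. Snhg12 had 2 and 7 reads, at or under 3 in every library, too few for a fold. Snhg3 had 0 reads in all 6 libraries, where a count of 0 allows up to 3 reads, or 2.78 to 3.22 normalized counts. Among the 4 low hosts with reads, Snhg4 and Snhg12 did not overlap between groups, with R98S higher, which was so for 6.88% of the rows with a mean from 1 to under 10. For Snhg12 this rested on counts of at most 3 reads, too low to resolve the groups.

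Summed over the 8 hosts other than Zfas1, the normalized counts were 129.0, 96.7 and 131.1 in WT and 242.1, 190.9 and 196.1 in R98S clones. The lowest R98S sum lay above the highest WT sum. With Zfas1 included the groups overlapped, at 2779, 2505 and 1739 against 2472, 2785 and 2353. In reads without Zfas1 these totals were 126, 90 and 131 against 258, 187 and 212. Snhg6, Snhg15 and Gas5 supplied most of them, so the sum largely repeats the separation of these hosts and is not a further result.

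Per kilobase of annotated exon, Zfas1 stood at 759 normalized counts in WT and 794 in R98S, Snhg6 at 48.9 and 77.6 and Snhg15 at 25.8 and 45.9. Gas5 followed at 3.74 and 6.91 and Snhg5 at 3.38 and 7.28, with Snhg1 at 0.693 and 1.40 and Snhg12 at 0.291 and 0.931. In WT clones the per-kilobase values of Gas5 (3.14 to 4.09) and Snhg5 (3.11 to 3.55) overlapped. Those of Snhg1 (0.337 to 1.38) and Snhg12 (0 to 0.447) overlapped too, so neither order was resolved on this measure. Zfas1, Snhg6 and Snhg15 were separated from each other in every WT clone, the lowest Snhg6 value being 44.5 and the highest Snhg15 value 39.8. The exon lengths count every annotated transcript, including those that keep introns. For Gas5 they came to 3760 bases against a median transcript of 629, and for Snhg5 to 1730 against 832. For Snhg1 they were 2969 against 602.5 and for Snhg12 2402 against 915.5. The order of these hosts therefore depends on the length chosen.

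The snoRNAs inside the hosts had few reads in these libraries of polyadenylated RNA. How far such libraries capture trimmed snoRNAs was not tested, so a lack of reads is not a lack of expression. Of the 31, 28 had a row and 25 of these had 0 reads in every library. Snord87 gave 37.9, 27.9 and 24.0 in WT and 47.8, 30.6 and 30.5 in R98S clones, means of 29.9 ± 7.15 and 36.3 ± 9.97 (SD, n = 3 each), and the groups overlapped. Its log2 fold change was 0.26 (adjusted p = 0.615, limma). Beside it, its host Snhg6 had a log2 fold change of 0.64.

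Snora24 was the one readout from the Snhg8 locus, as the host had no row. It gave 39.9, 24.7 and 18.01 in WT and 53.5, 28.6 and 33.3 in R98S clones, overlapping groups with a log2 fold change of 0.49 (adjusted p = 0.427, limma). Snora16a, inside Snhg12, had 16 and 25 reads. Reads of a snoRNA row can come from unspliced host RNA or from transcripts that keep the intron, and these sources cannot be told apart in a table of counts. Over all 46 snoRNA rows tested, 38 had a higher mean log2 value in R98S clones, 4 were called higher and 0 lower, and the median log2 fold change was 0.45. Of all 11550 tested genes 5667 lay in the higher direction and 10.7% were called higher, against 8.70% of the snoRNA rows. Their share of all reads was 0.00611% to 0.00779% in WT and 0.00784% to 0.0104% in R98S clones.

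Neighbouring genes were examined because several hosts share a promoter region or exon bases with them. Gas5 starts 427 bases from the divergent gene Zbtb37, which encodes a zinc finger protein and had a log2 fold change of 0.38 (adjusted p = 0.251, limma). Zfas1 starts 81 bases from Znfx1, an antiviral helicase gene, at 0.21 (adjusted p = 0.300, limma), and Snhg1 starts 106 bases from Slc3a2, the heavy chain of an amino acid transporter, at -0.24 (adjusted p = 0.208, limma). None of these 3 partners passed the test, which 23.9% of all tested genes did. The groups did not overlap for Znfx1, with R98S higher, which was true of 18.1% of all tested genes.

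Snhg3 shares 135 exon bases on the same strand with Rcc1, which encodes the exchange factor of the Ran GTPase. Rcc1 rose from 2461 ± 75.9 to 3270 ± 278 (SD, n = 3 each), a log2 fold change of 0.41 (adjusted p = 0.0360, limma), while Snhg3 itself had no read. Whether reads of the shared bases were left out of both genes was not tested. Snhg3 also shares 705 exon bases on the opposite strand with its divergent partner Gm17300, at 13.8 ± 5.10 and 25.6 ± 9.91 normalized counts (adjusted p = 0.257, limma). Zfas1 shares 82 exon bases on the opposite strand with Znfx1 and 189 on the same strand with Gm27494, which had no read, and Snhg6 shares 127 on the opposite strand with Mcmdc2, at 3.82 and 4.08. The strand setting of the counting was not given in the sources used here.

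Other noncoding snoRNA hosts were taken as a second list of 15 genes, of which 12 had a row and 5 were tested. 1 of the 5 rose (20%, beside 23.9% of all tested genes), 0 fell, and the list's median log2 fold change was 0.39. The one called was 2410006H16Rik, which went from 114.7, 78.4 and 88.1 in WT to 148.2, 152.1 and 154.5 in R98S clones, means of 93.7 ± 18.8 and 152 ± 3.16, with a log2 fold change of 0.71 (adjusted p = 0.0561, limma), a call that was lost without WT clone 29, R98S clone 11 or R98S clone 35. Snhg16, the best covered, was at 416 ± 83.4 and 520 ± 30.4 (adjusted p = 0.211, limma). Snhg7, Snhg17 and Epb41l4aos had log2 fold changes of 0.39, 0.47 and 0.21 with limma adjusted p values of 0.449, 0.435 and 0.529. The long noncoding rows as a whole, 103 tested, had 10 called higher and 14 lower and a median log2 fold change of -0.041.

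Protein-coding genes can host snoRNAs as well, and 66 of 72 such genes were tested. Of these 12 rose and 1 fell, 19.7% beside 23.9% of all tested genes, with a median log2 fold change of 0.12. Without WT clone 28 or WT clone 29 the calls went to 7. Ncl, the nucleolar protein nucleolin, rose from 40094 ± 1291 to 75388 ± 15252, a log2 fold change of 0.89 (adjusted p = 0.0119, limma), and Hspa8, a heat shock cognate chaperone, by 0.75 (adjusted p = 0.0154, limma). Zbed3 fell by 0.45 on the log2 scale (adjusted p = 0.0390, limma). Nop56 and Nop58, which are snoRNP proteins as well as hosts, and Rcc1 were among those that rose.

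The proteins that package snoRNAs into particles were taken as a further list. Of 22 snoRNP proteins and assembly factors, all tested, 11 rose (50%) and 0 fell, beside 10.7% of all tested genes called higher, and the median log2 fold change was 0.33. Nhp2, a core protein of box H/ACA particles, rose from 3178 ± 137 to 5416 ± 530, by 0.77 on the log2 scale (adjusted p = 0.00488, limma). Dkc1, the pseudouridine synthase of the same particles, rose by 0.73 (adjusted p = 0.0148, limma), and its clone values were 6041, 5472 and 5416 against 11028, 7726 and 9612. The 11 calls fell to 4 without WT clone 28, to 5 without WT clone 29, WT clone 36 or R98S clone 11, and to 6 without the expression filter. The box C/D core proteins Nop56 and Nop58 rose by 0.55 and 0.44 and the methyltransferase gene Fbl by 0.36 (adjusted p = 0.0150, 0.0533 and 0.0819, limma).

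**Figure D4:**
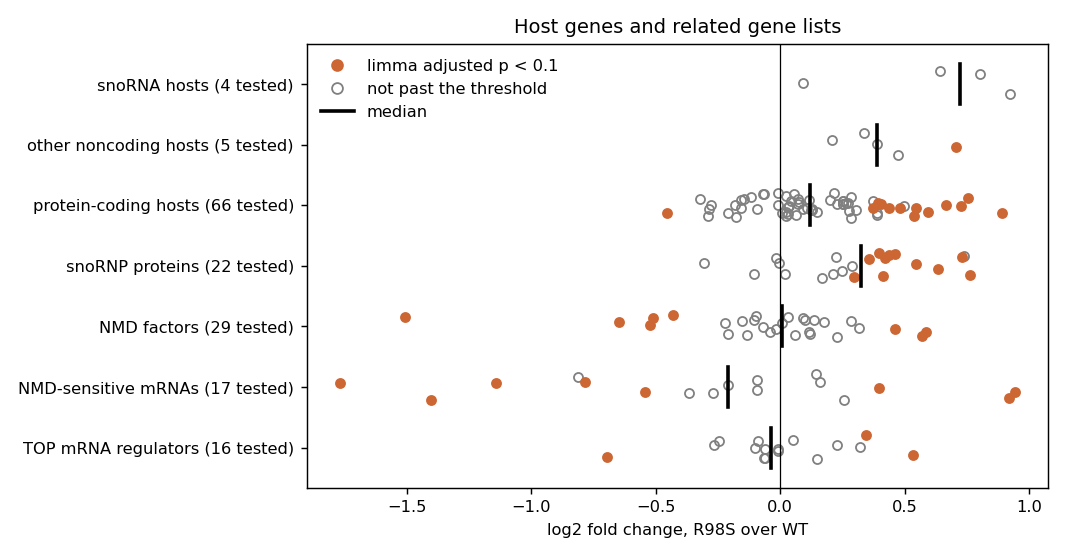
Log2 fold change of R98S over WT (x axis) for every tested gene of 7 lists, filled where the limma adjusted p was under 0.1, with a black bar at each list's median. The hosts have a median of 0.72 with 0 called, and the snoRNP proteins a median of 0.33 with 11 of 22 called, all higher.

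Of 29 tested NMD factors, including exon junction, release and decapping proteins, 3 rose and 5 fell, 27.6% beside 23.9% of all tested genes, and the median log2 fold change was 0.0059. Without WT clone 28 there were 3 calls, and without WT clone 29 or R98S clone 11 there were 5. Upf3b, which links NMD to the exon junction complex, rose by 0.59 and the cap-binding gene Ncbp1 by 0.57 (adjusted p = 0.0142 and 0.0150, limma). Magohb, a second copy of an exon junction core protein, fell by 1.51 on the log2 scale, from 443 ± 86.0 to 154 ± 13.8 (adjusted p = 0.00312, limma), and Smg9, a partner of the Smg1 kinase, fell by 0.65 (adjusted p = 0.0429, limma). The central helicase gene Upf1 fell by 0.43 (adjusted p = 0.0707, limma).

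Of 17 tested mRNAs known as NMD targets, 3 rose and 5 fell, 47.1% beside 23.9% of all tested genes, with a median of -0.21 against 0.72 for the hosts. Each value is a total over all transcripts of a gene, and the part of them that NMD degrades was not tested. The 8 calls went to 3 without WT clone 29 or R98S clone 35 and to 4 without WT clone 28 or R98S clone 11. Upp1, a uridine phosphorylase, rose by 0.94 and Nat9 by 0.92 (adjusted p = 0.0942 and 0.0260, limma). Slc7a11, a cystine transporter, fell by 1.77 (adjusted p = 0.0755, limma) although its groups overlapped through WT clone 36, and Gadd45g, a growth arrest gene, fell by 1.41 (adjusted p = 0.0591, limma). Several members of this list are also targets of the transcription factor ATF4.

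Among 16 regulators of pyrimidine-tract mRNAs, 2 rose and 1 fell, 18.8% beside 23.9% of all tested genes, and the median was -0.036. A single call was left without WT clone 28, WT clone 29 or R98S clone 11. Larp1b, a relative of the tract-binding protein Larp1, rose by 0.53 (adjusted p = 0.0251, limma) and Tial1, an RNA-binding stress granule protein, by 0.34 (adjusted p = 0.0994, limma). Eif4ebp1, the inhibitor of the cap-binding protein eIF4E, fell by 0.70 (adjusted p = 0.0418, limma), and Larp1 itself was at 7657 ± 1086 and 8449 ± 798 (adjusted p = 0.485, limma).

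The 5 genes most like the mean profile of the 4 tested hosts were found by the root-mean-square difference of centred log2 values over the 6 libraries, among 11546 other genes. They were Pop1 at 0.0575, Nr1d2 at 0.0633, Ints4 at 0.0705, Itgb1bp1 at 0.0770 and Ndufb10 at 0.0799. Pop1 encodes a protein of RNase P and RNase MRP, Nr1d2 a clock repressor, Ints4 an Integrator subunit, Itgb1bp1 an integrin-binding protein and Ndufb10 a subunit of respiratory complex I. Relative to its own mean, the host profile stood at -0.15, -0.53 and -0.24 for clones 28, 29 and 36 (WT), and at 0.46, 0.22 and 0.24 for clones 11, 13 and 35 (R98S). In this mean profile WT clone 29 was thus the lowest and R98S clone 11 the highest, on the log2 scale. Single hosts departed from it. Zfas1 and Snhg6 were lowest in WT clone 36, Zfas1 was highest in WT clone 28, and Snhg15 was highest in R98S clone 13. Each of the 5 similar genes, picked for this profile, was called higher in R98S clones (adjusted p = 0.0185 to 0.0405, limma), while none of the hosts was called.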

How the data were processed

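Polyadenylated RNA of 6 clones was sequenced with a strand-specific kit. The authors removed ribosomal and transfer RNA reads with Bowtie2, aligned the rest to mm10 (GRCm38) with TopHat and kept primary alignments above a mapping quality limit. The submitters' processing notes also name SAMtools, HTSeq and DESeq2. Reads on exons were counted. The gene annotation and the strand setting of the counting are not given in the sources used here. Each deposited value is a normalized signal, the authors' read count divided by a DESeq2 size factor. In each library 100% of values above 0 were whole multiples of 1 step (tolerance 0.001 reads), which gave back the reads. The mapping filter lowers genes with near-identical copies elsewhere.

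Clones were grouped by their labels. limma (version 3.58.1, R 4.3.3) was run with an intensity trend on log2 values (pseudocount 1) for 11550 genes with a mean of at least 10, two-sided, with Benjamini-Hochberg adjustment over all of them and a threshold of 0.1. The pseudocount understates the fold of low genes. edgeR (4.0.16) quasi-likelihood and DESeq2 (1.42.0) on the recovered reads were alternatives. Scripts were tested on simulated data. Symbols were matched to GENCODE M21 and RefSeq GRCm38.p6 (37858 rows, 91.8%), 2 hosts through RefSeq synonyms. Hosts and lists were chosen with earlier results of these data known. The named genes were every host, its partners and overlapping genes, hosted snoRNAs with a mean of at least 10, the 5 most similar genes, and of each list the 2 highest and 2 lowest called genes. The members Fbl, Nop56, Nop58, Upf1, Larp1 and the uncalled members of the other noncoding hosts were added after their values were seen, as were Snora16a, Malat1 and Neat1. A few marker genes of the lists are not reported here.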

Additional observations from a re-analysis of the deposited data

How the results depend on the processing

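Of the values of single hosts under the alternatives, 65 kept their direction and their side of the threshold, 4 newly passed and 1 reversed. The reversal was Zfas1, at -0.12 without WT clone 36 and between that and 0.24 on leaving out any clone. Of the hosts, 0 were called at pseudocounts of 0.5 and 5, without the expression filter, under both rescalings, with edgeR or DESeq2, with the regional shift removed and at an adjusted p under 0.05. The regional shift, subtracted in each library, was the median centred log2 value of the 30 nearest tested genes on the same chromosome. Between the groups it came to 0.23 for Snhg6, 0.18 for Gas5, 0.045 for Zfas1 and 0.039 for Snhg15. At a minimum mean of 50 only Snhg6 and Zfas1 could be tested, and neither was called. Without the intensity trend 2 were called, Gas5 (limma adjusted p = 0.0884) and Snhg6 (0.0858), and leaving out 1 clone gave 0 to 1. Over the alternatives the adjusted p ran from 0.0791 to 0.376 for Gas5, 0.0858 to 0.313 for Snhg6, 0.0466 to 0.356 for Snhg15 and 0.506 to 0.971 for Zfas1.

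The other noncoding hosts went from 1 called to 0 without the filter and to 0 at an adjusted p under 0.05, and leaving out 1 clone gave 0 to 1 (0 without WT clone 29, R98S clone 11 or R98S clone 35). The snoRNP proteins went from 11 to 6 without the filter, 7 without the trend and 5 at an adjusted p under 0.05, and to between 4 and 12 on leaving out 1 clone. Leaving out WT clone 28 gave the 4, and leaving out WT clone 29, WT clone 36 or R98S clone 11 gave 5 and R98S clone 35 gave 7. NMD-sensitive mRNAs went from 8 to 5 without the trend and 3 at an adjusted p under 0.05, and between 3 and 11 on leaving out 1 clone. Here WT clone 29 and R98S clone 35 gave 3, and WT clone 28 and R98S clone 11 gave 4. NMD factors ran from 3 to 9 around 8, with 3 without WT clone 28 and 5 without WT clone 29 or R98S clone 11. Regulators of pyrimidine-tract mRNAs ran from 1 to 4 around 3, with 1 without WT clone 28, WT clone 29 or R98S clone 11, and 5 with DESeq2. Protein-coding hosts ran from 7 (without WT clone 28 or 29) to 18 around 13. All genes ran from 1322 (without WT clone 28) to 3213 around 2755, with 1457 without WT clone 29, 1560 without R98S clone 11, and 1722 at an adjusted p under 0.05. A fit that leaves out a clone has fewer samples, and the cause of the other moves was not tested.

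No paired analysis was possible because the clone numbers differ between the groups. edgeR without an expression filter, and matching rows by listed symbol only, were chosen after seeing the data, and both called 0 hosts. Depth limits Snhg1, Snhg3, Snhg4, Snhg5 and Snhg12, which had at most 42 reads in a group.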
